A study of Mus musculus with 6 samples.

Results

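Messenger RNA of 9 genes with a Ly6 or uPAR (urokinase receptor) domain was followed in mouse epidermis. The genes are Lypd1, Lypd3, Lypd5, Slurp1, Ly6d, Ly6g6c, Ly6a, Ly6c1 and Ly6e, taken by symbol from the 41214 gene identifiers of the count files. All 9 were found and all 9 were among the 13704 genes that passed the filter on low counts. Ly6c1 passed that filter through its ko libraries, since only 1 of its 3 wt libraries lay above the cutoff of about 0.499 CPM (counts per 1000000 of the library size, which is the reads counted in genes scaled by the TMM method). The 9 were chosen by their measured CPM and their ko to wt differences in these same libraries. Their differences between the genotypes are therefore given as a description, with no test of their own.

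RNA came from the epidermis, after trypsin treatment of the skin, of C57BL/6 mice at postnatal day 4. There were 3 libraries labelled wt and 3 labelled ARPC4 ko, in which the Arpc4 subunit of the actin-nucleating Arp2/3 complex is the target. The series title places the knockout in the epidermis and speaks of a psoriasis-like disease. The sources used here give no promoter or Cre line, no deleted exons and no number of animals per library. P-values therefore measure only the spread between these samples, which may be technical. The titles of replicates 1 and 2 in both genotypes name a date, and those of the libraries called replicate 3 here name none and carry the word Tryp. The ko titles say hom. The meaning of Tryp is not stated, and the protocol gives trypsin treatment for all 6 libraries.

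Proteins of this family carry a small, disulfide-bonded fold that they share with snake toxins. Most are held on the outer face of the cell membrane by a glycosylphosphatidylinositol (GPI) anchor, and a few are secreted. In stratified epithelia several of them, such as Lypd3, Lypd5, Ly6d and Slurp1, are made by keratinocytes of the layers above the basal layer. Others are better known as surface markers of blood cells, vessels or progenitor cells, among them Ly6a and Ly6c1. Some members bind or modulate nicotinic acetylcholine receptors.

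Counts in genes ran from 17561294 to 22659511 per library. The tissue label was checked against suprabasal markers, whose summed level ran from 97000 to 182700 CPM, with Krt1 and Krt10 alone at 31500 to 70330 CPM each. Arpc4 itself lay at 72.5, 82.5 and 73.1 CPM in the 3 wt libraries and at 67.5, 65.6 and 64.5 in the 3 ko libraries. Every ko library was below every wt library (log2 fold change -0.21, SE 0.10, adjusted p = 0.469 by edgeR), but reads from exons outside a deletion are counted, so this does not check the knockout. Basal keratinocyte markers set the libraries apart within groups, with summed levels of 8080, 2151 and 10820 CPM in the 3 wt libraries and 3480, 4814 and 12480 in the 3 ko libraries. Libraries with the X-inactivation transcript Xist (507.8 to 578.7 CPM) were wt replicate 3 and ko replicates 1 and 3, so the sexes were not balanced between the groups.

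The family sits in gene clusters, and the nearness of its copies bears on what can be counted. Slurp1, Ly6d, Ly6e, Ly6a and Ly6c1 lie in a stretch of 884.6 kb on chromosome 15 that holds 19 of the 42 family genes found in the files. Lypd3 and Lypd5 lie on chromosome 7 on either side of Plaur, the gene of the urokinase receptor. Ly6g6c lies on chromosome 17 with Ly6g6d, Ly6g6e, Ly6g5c and Ly6g5b, and Lypd1 stands alone on chromosome 1. Of the 51-base windows of Ly6c1 transcripts, 32.1% occurred identically and 73.5% with at most 2 mismatches in transcripts of other genes elsewhere in the genome, chiefly Ly6c2 and Ly6a. For Ly6a the shares were 18.5 and 40.4%. For the other 7 genes at most 1.83% of windows had such a match at another place. Reads that aligned to more than 1 place were not assigned to a gene, so the counts of Ly6c1 and Ly6a are incomplete and uncertain. Such reads on chromosome 15 made up 0.485, 0.466 and 0.544% of all reads in wt replicates 1 to 3. In ko replicates 1 to 3 they made up 0.625, 1.03 and 1.105%, so the unassigned share differed between the groups. The genes these reads came from are not given.

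The stretch below is shown because it is the kind of sequence that a read of 51 bases cannot place. It is coding sequence within 1 exon of Ly6c1 (GRCm38, minus strand, chr15:75047419-75047469), with the stretches of Ly6c2 (minus strand, chr15:75110577-75110627) and Ly6a (minus strand, chr15:74996518-74996568) that match it best. Capitals mark the bases that differ from Ly6c1.
Ly6c1: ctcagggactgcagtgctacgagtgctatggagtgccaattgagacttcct
Ly6c2: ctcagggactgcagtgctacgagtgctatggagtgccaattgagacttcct
Ly6a: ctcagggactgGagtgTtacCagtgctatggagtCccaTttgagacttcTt
The Ly6c2 stretch is identical to that of Ly6c1, while that of Ly6a differs at 6 bases. Of the 237 coding windows of this length within single exons of Ly6c1, 104 were identical in Ly6c2 and 155 had at most 2 differences from it. None of the 237 was identical in Ly6a, and 20 had at most 2 differences. A read from one of the identical windows has no single place in the genome. Ly6c2 itself had 0, 0 and 1 counts in wt and 4, 1 and 2 in ko.

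Levels of different genes were compared per kilobase of merged exon length. In wt epidermis Ly6d was the most abundant of the 9, at 1505 ± 135.7 CPM per kilobase (SD, n = 3). Ly6g6c followed at 796.7 ± 172.8, Lypd3 at 477.9 ± 59.3, Lypd5 at 196.8 ± 89.7 and Slurp1 at 54.7 ± 13.8 CPM per kilobase. These 5 are the genes of the family known from differentiating keratinocytes or, for Ly6g6c, from the major histocompatibility region. Ly6e stood at 19.4 ± 4.4, Ly6a at 3.37 ± 2.63, Ly6c1 at 0.205 ± 0.13 and Lypd1 at 0.098 ± 0.00647 CPM per kilobase. No 2 neighbours in this order overlapped in their 3 wt libraries, but Ly6d and Ly6g6c did when the longest transcript replaced merged exons. The gap between Ly6c1 and Lypd1 was nonetheless smaller than the SD of Ly6c1.

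In ko epidermis the first 7 ranks were the same genes in the same order, and the last 2 depended on the length used. Ly6d was again first at 1397 ± 301.5 CPM per kilobase. Ly6g6c at 700.7 ± 129.5 and Lypd3 at 672.1 ± 89.5 overlapped, as did Ly6e at 24.5 ± 6.11 and Ly6a at 17.6 ± 14.8. Lypd1 at 0.917 ± 0.274 and Ly6c1 at 0.796 ± 0.371 overlapped too, and with the longest transcript Ly6c1 was above Lypd1 (1.58 and 0.998 CPM per kilobase). With that length Ly6g6c (995.7) and Lypd3 (672.1) did not overlap, whereas Ly6d with Ly6g6c and Slurp1 (43.7) with Ly6e (40.6) did. Ly6d, Ly6g6c and Lypd3 together made up 78.8 to 86.1% of the summed CPM of the 9 genes in every library of both groups. The share of Lypd3 alone in that sum was 20.4, 20.4 and 24.0% in wt and 27.5, 30.4 and 31.1% in ko.

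**Figure D1:**
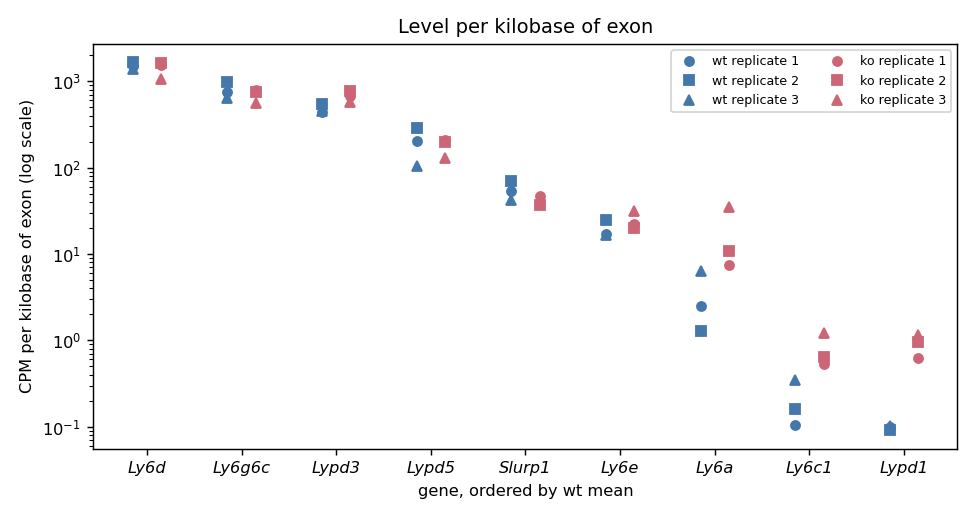
Level of each gene in CPM per kilobase of merged exon (log axis) in every library, with genes ordered by their wt mean. Points are single libraries, blue for wt and red for ko. Ly6d is highest in both groups, and Lypd1 and Ly6c1 lie below all other genes in both.

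By the test fitted across all genes (edgeR quasi-likelihood, Benjamini-Hochberg threshold of 0.05), 1 of the 9 genes, Lypd1, was among those called higher in ko, against 0.219% of all genes tested. None of the 9 was called lower, and 0% of all genes tested were. In 4 of the 9 the ko range lay wholly above the wt range, which held for 11.3% of all genes tested. In none did it lie wholly below, which held for 8.03%. At an unadjusted p under 0.05 edgeR had 4 of the 9 higher (7.98% of all genes) and 0 lower (5.25%). DESeq2 called 2 of the 9, Lypd1 and Ly6a, both higher, against 2.82% of its genes called higher, 1.43% lower and 4.25% in either direction. The fitted log2 fold change was above 0 for 5 and below 0 for 4, with a median of 0.34 against 0.02 over all genes tested. Since the list was drawn up with these values known, the counts say only how it was composed.

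Lypd1 (ENSMUSG00000026344, chromosome 1, 125867622 to 125913101, minus strand, GRCm38) encodes a GPI-anchored protein also called Lynx2, which is best known from neurons, where it binds nicotinic receptors. It had 16, 12 and 16 counts in wt replicates 1 to 3 and 88, 115 and 156 counts in ko replicates 1 to 3. These are 0.704, 0.638 and 0.726 CPM in the 3 wt libraries and 4.37, 6.8 and 8.18 in the 3 ko libraries. The wt libraries were nearly equal, and the lowest ko library was far above all of them. The means were 0.689 ± 0.0455 and 6.45 ± 1.93 CPM (SD, n = 3), a ratio of 9.36, and the fitted log2 fold change was 3.21 (SE 0.33). The gene remained scarce in ko, with a level per kilobase below those of 7 of the other 8 genes.

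The log2 fold change of Lypd1 was 3.01 among the dated libraries, and the ratio between the undated pair was 11.3. Leaving out single libraries gave 2.96 to 3.43. Its call was lost without wt replicate 1, 2 or 3 or ko replicate 2, under scaling to total counts and with limma-voom. In each of these settings but total counts, 0 of all genes were called, so the loss is not particular to Lypd1. Scaling to total counts left 20 genes called. Of the exon length of Lypd1, 17.1% lies opposite Gpr39, which had 0 counts in all 3 wt libraries and 1, 6 and 2 in ko. The libraries were stranded, but how the counting used strand is not stated, so the count of this stretch is uncertain.

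Of the 9 genes, 5 have a promoter window in the RefSeq table for GRCm38.p6 and Slurp1, Ly6d, Ly6a and Ly6e do not. The window of Lypd1 is shown because it belongs to the gene with the largest ratio. It is the most upstream of its 3 listed start sites (GRCm38.p6, minus strand, chr1:125912879-125913178), and capitals mark the 50 bases from the start site on.
Lypd1: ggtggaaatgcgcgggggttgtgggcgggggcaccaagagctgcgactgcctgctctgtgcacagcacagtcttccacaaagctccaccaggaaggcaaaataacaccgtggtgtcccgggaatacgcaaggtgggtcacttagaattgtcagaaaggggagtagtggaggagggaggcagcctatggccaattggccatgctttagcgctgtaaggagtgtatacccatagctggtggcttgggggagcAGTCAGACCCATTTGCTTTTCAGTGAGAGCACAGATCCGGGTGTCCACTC
A search on both strands covered TGANTCA (the AP-1 site), the interferon-stimulated element (GAAA, any 2 bases, GAAA) and TGACNNNGC (the core of the antioxidant element). None of these letters occurred in the 8 windows of Lypd1, Lypd3, Lypd5, Ly6g6c and Ly6c1. Among 32851 promoter windows of 300 bases the 3 motifs were found in 7.81, 3.44 and 12.4%, in that order.

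Lypd3 (ENSMUSG00000057454, chromosome 7, 24636550 to 24641118, plus strand), a GPI-anchored relative of the urokinase receptor on suprabasal keratinocytes, had the only non-overlapping groups among the abundant genes. It lay at 723.3, 900.4 and 740.3 CPM in the 3 wt libraries and at 1114, 1253 and 958 in the 3 ko libraries. The lowest ko library, replicate 3, exceeded the highest wt library, replicate 2, by less than the SD within either group. The means were 788 ± 97.7 and 1108 ± 147.7 CPM (SD, n = 3), a ratio of 1.41, with a fitted log2 fold change of 0.49 (SE 0.18). Leaving out single libraries gave 0.39 to 0.60, and it was not called in any of the 16 alternative analyses. Of its exon length 13.6% lies opposite Gm26550, which was counted at 1.64 to 2.29 CPM.

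Lypd5 (ENSMUSG00000030484, chromosome 7, 24349196 to 24355109, plus strand), a protein of the granular layer, lay at 453, 635.1 and 234.1 CPM in the 3 wt libraries and at 465.1, 443.7 and 287.3 in the 3 ko libraries. The undated library was the lowest of its group in both genotypes, and the groups overlapped. The means were 440.8 ± 200.8 and 398.7 ± 97.1 CPM (SD, n = 3), and the fitted log2 fold change was -0.14 (SE 0.37). Its sign turned without wt replicate 2 (0.21) and without ko replicate 3 (0.0083). The suprabasal markers as a list were also lowest in the undated library of each group, with sums of 127600, 163000 and 97000 CPM in the 3 wt libraries and 159000, 182700 and 100200 in the 3 ko libraries. The hair follicle markers were too by their sums, of 6915, 11970 and 4093 CPM in wt and of 6198, 6885 and 4310 in ko. As means of log2(CPM + 0.5) they were at 7.072, 7.888 and 7.075 in wt and at 7.193, 7.154 and 7.148 in ko. By that measure wt replicate 1 was the lowest wt library, and the ko libraries were nearly equal. As for Lypd5, wt replicate 2 was the highest library of that list, whereas ko replicate 2 was the highest of the suprabasal list. Of 10 hair follicle markers tested 0 were called by edgeR (0 at an unadjusted p under 0.05, 0 with DESeq2), and likewise 0 of 13 suprabasal ones (0 and 0). The part of either list in the values of Lypd5 was not tested.

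Ly6d (ENSMUSG00000034634, chromosome 15, 74762056 to 74763620, minus strand), a GPI-anchored protein of keratinocytes that also marks early B-lineage cells, lay at 1104, 1228 and 1028 CPM in the 3 wt libraries and at 1145, 1192 and 782.1 in the 3 ko libraries. The 2 dated ko libraries fell inside the range of wt, and ko replicate 3 was below it. The fitted log2 fold change was -0.11 (SE 0.21), and without ko replicate 3 it was 0.03. Ly6g6c (ENSMUSG00000092586, chromosome 17, 35065388 to 35070050, plus strand), whose function is little known, lay at 1037, 1347 and 883.2 CPM in the 3 wt libraries and at 1089, 1028 and 756.5 in the 3 ko libraries. The groups overlapped, and ko replicate 3 was again the lowest library. The fitted log2 fold change was -0.19 (SE 0.23).

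Slurp1 (ENSMUSG00000022596, chromosome 15, 74724318 to 74728034, minus strand) encodes a secreted ligand of nicotinic receptors, whose loss causes a thickening of palm and sole skin. It lay at 156.5, 202.9 and 122.1 CPM in the 3 wt libraries and at 137, 107 and 131 in the 3 ko libraries. The 2 dated ko libraries lay below both dated wt libraries, while the undated ko library was above the undated wt library. The means were 160.5 ± 40.5 and 125 ± 15.8 CPM (SD, n = 3), and the fitted log2 fold change was -0.36 (SE 0.21). It was -0.59 among the dated libraries, and the ratio of the undated pair was 1.07.

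**Figure D2:**
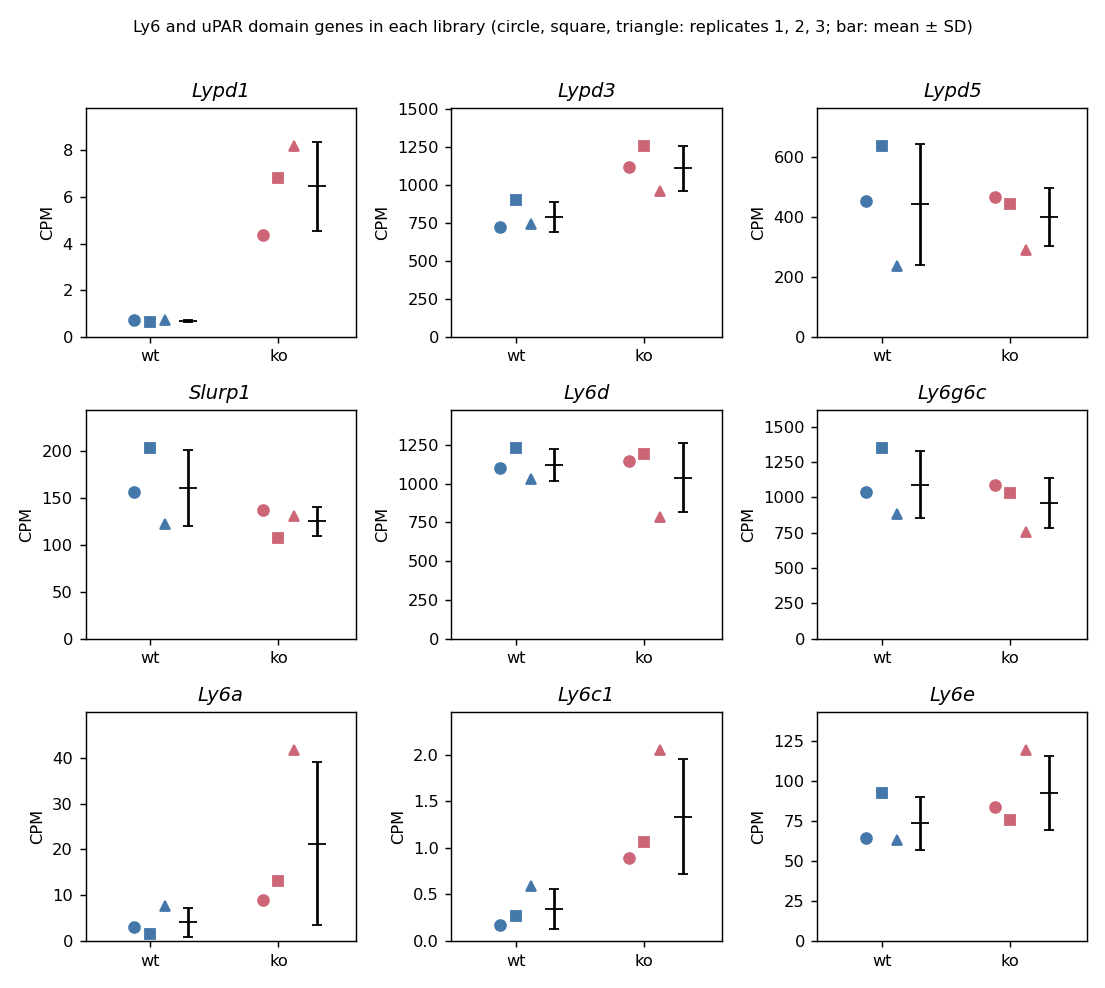
CPM of the 9 genes in each library, with circles, squares and triangles for replicates 1, 2 and 3, and the mean ± SD of 3 libraries beside them. Each panel has its own linear axis from 0. The groups do not overlap for Lypd1, Lypd3, Ly6a and Ly6c1, and they overlap for the other 5 genes.

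Ly6a (ENSMUSG00000075602, chromosome 15, 74994877 to 74998031, minus strand) encodes Sca-1, a marker of stem and progenitor cells that interferons are known to induce. It lay at 3.04, 1.54 and 7.62 CPM in the 3 wt libraries and at 9.05, 13.1 and 41.6 in the 3 ko libraries. Every ko library was above every wt library, but the undated wt library nearly reached the lowest ko library, and the undated ko library stood far above all others. The means were 4.07 ± 3.17 and 21.2 ± 17.8 CPM (SD, n = 3), a ratio of 5.23. The fitted log2 fold change was 2.37 (SE 0.75). It was 1.39 without ko replicate 3 and 3.19 without wt replicate 3, and 2.22 among the dated libraries, while the undated pair had a ratio of 5.47. It was called under 4 of the 16 alternative analyses, DESeq2 among them.

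Ly6c1 (ENSMUSG00000079018, chromosome 15, 75044018 to 75048830, minus strand), a marker of monocytes, T cells and vessels, had 4, 5 and 13 counts in wt and 18, 18 and 39 counts in ko. These are 0.176, 0.266 and 0.589 CPM in the 3 wt libraries and 0.895, 1.06 and 2.05 in the 3 ko libraries. As for Ly6a, the undated library was the highest of its group in both genotypes. The means were 0.344 ± 0.217 and 1.34 ± 0.621 CPM (SD, n = 3), and the fitted log2 fold change was 1.93 (SE 0.54). It was 1.44 without ko replicate 3 and 2.58 without wt replicate 3. These are small counts of a gene with close copies, as shown above.

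Ly6e (ENSMUSG00000022587, chromosome 15, 74955051 to 74959905, plus strand) encodes another interferon-induced member, known for its effects on virus entry. It lay at 64.4, 92.6 and 63.1 CPM in the 3 wt libraries and at 83.3, 75.6 and 119 in the 3 ko libraries, and the groups overlapped. Its fitted log2 fold change of 0.34 (SE 0.23) became -0.01 among the dated libraries alone. The ratio of the undated pair was 1.88.

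Ly6a, Ly6c1 and Ly6e are genes that other cell types and interferons are known to raise, so lists for these were read beside them. In bulk epidermis fewer cells of a type and less RNA per cell cannot be told apart. The 12 endothelial markers summed to 6.22 to 6.62 CPM in wt and to 30.2, 30.8 and 16.99 CPM in ko. Of the 12, 11 were tested, and 5 of these passed the filter on low counts through ko alone, with no wt library over the cutoff, so the following counts say little. For all 11 the ko range lay above the wt range (11.3% of all genes), and 0 were called by edgeR (11 higher at an unadjusted p under 0.05, 9 with DESeq2). The 2 that all wt libraries held above the cutoff were Pecam1 (log2 fold change 1.75, SE 0.32) and Vwf (1.21, SE 0.28). Cdh5, the cadherin of vessel junctions, lay at 0.264, 0.532 and 0.499 CPM in the 3 wt libraries and at 4.82, 4.02 and 1.78 in the 3 ko libraries. The undated ko library was thus the lowest of its group in the endothelial sum and the highest in Ly6a and Ly6c1. No endothelial marker was at 0 in all libraries.

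The 10 haematopoietic markers summed to 284.2, 358.4 and 632.7 CPM in wt and to 741.6, 356.7 and 650 CPM in ko, and 0 of 10 were called (0 at an unadjusted p under 0.05, 0 with DESeq2). The 8 fibroblast markers summed to 66.7, 133.9 and 178.9 CPM in wt and to 586, 764.2 and 181 CPM in ko. Of the 8, 0 were called by edgeR (6 at an unadjusted p under 0.05, 5 with DESeq2, all higher in ko). Over all genes 7.98% were higher at that unadjusted p, and DESeq2 called 2.82% higher. The log2 fold change was above 0 for all 8 fibroblast markers. In both lists ko replicate 3 was not the highest library of its group. The basal markers, given above, were highest in the undated library of each group, and 0 of 12 were called by edgeR (0 at an unadjusted p under 0.05, 0 with DESeq2). The part of these cell types in the values of Ly6a and Ly6c1 was not tested.

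The 14 interferon-response genes had mean levels of 0.74, 0.56 and 1.38 log2(CPM + 0.5) in wt and of 1.28, 0.89 and 2.46 in ko. The picture depended on the measure, since they summed to 62.69, 76.21 and 81.07 CPM in wt and to 62.63, 41.45 and 125 CPM in ko. By either measure, ko replicate 3 alone lay above all 3 wt libraries. The dated ko libraries lay above the dated wt libraries by the mean, but below all wt libraries by the sum. The undated library was the highest of its group in both genotypes, as it was for Ly6a and Ly6c1. Of 11 tested, 0 were called by edgeR (at an unadjusted p under 0.05, 5 higher and 1 lower, and with DESeq2 1 of each). Irf7, a transcription factor of the interferon response, had lower values in ko, at 39.3, 61.5 and 41.0 CPM in the 3 wt libraries and 26.9, 12.4 and 20.2 in the 3 ko libraries (-1.25, SE 0.31, adjusted p = 0.159 by edgeR). The part of interferon in the values of Ly6a, Ly6c1 and Ly6e was not tested.

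**Figure D3:**
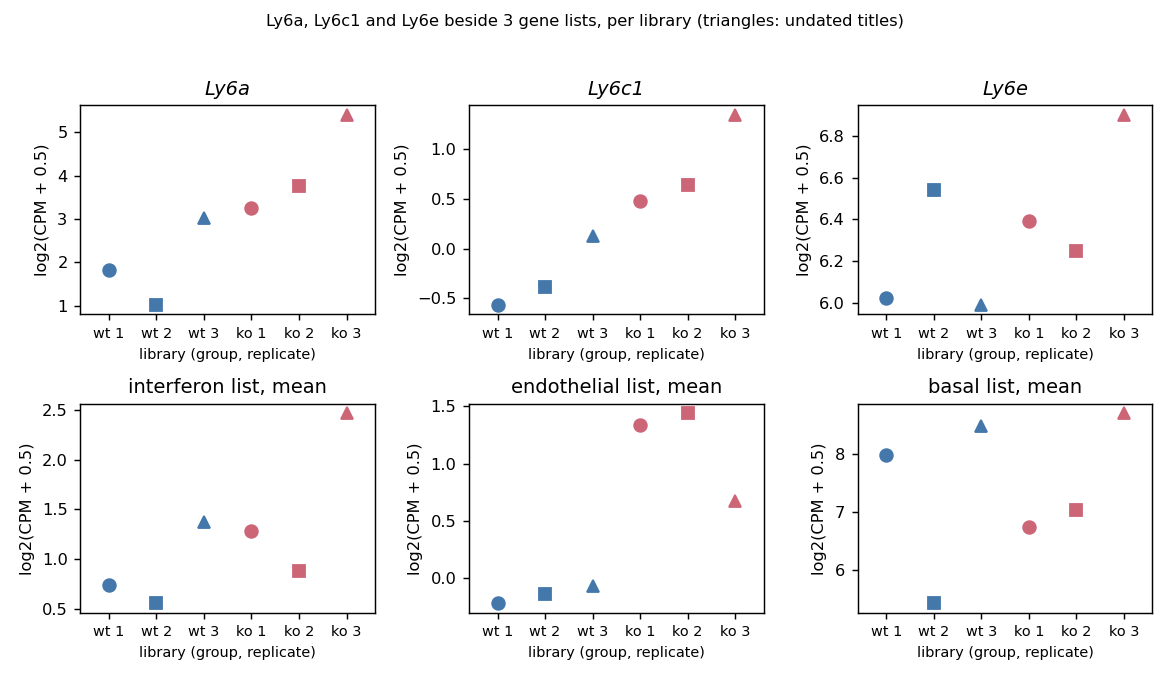
Ly6a, Ly6c1 and Ly6e (top) and the mean of the interferon, endothelial and basal lists (bottom) in each library, as log2(CPM + 0.5) on axes that do not start at 0. Triangles are the undated libraries. Ko replicate 3 is the highest library for the 3 genes and for the interferon and basal lists, and the lowest ko library for the endothelial list.

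For the 4 genes whose log2 CPM had an SD of at least 0.5 over the 6 libraries, the 3 genes with the nearest profile were found among 9410 tested genes of at least 5 CPM. Nearness was the root mean square difference of mean-centred log2(CPM + 0.5) over the 6 libraries, and with 6 values a close match is easily found. Nearest to Ly6a were Serpinb1a (0.15), a protease inhibitor, Stom (0.19), a membrane scaffold protein, and C1s1 (0.3), a complement protease. Serpinb1a lay at 4.58, 2.82 and 9.84 CPM in the 3 wt libraries and at 14.9, 16.6 and 57.1 in the 3 ko libraries, the same order of libraries as Ly6a. Nearest to Ly6c1 were Samhd1 (0.12), a nucleotide hydrolase of antiviral defence, Lpgat1 (0.15) and the growth factor Hbegf (0.15). At the 0.176 to 2.05 CPM of Ly6c1 the offset of 0.5 flattens its profile, so these genes changed less in CPM than it did. Samhd1 lay at 28.1, 31.7 and 37.2 CPM in the 3 wt libraries and at 54.3, 66.2 and 90.95 in the 3 ko libraries. Nearest to Lypd5 were Dnase1l2 (0.074), a nuclease of cornifying keratinocytes, Tubb2b (0.08) and Mitf (0.088). Nearest to Lypd1 were Elk3 (0.28), Dhrs9 (0.31) and the stefin Stfa2 (0.32), all farther than the first match of each other gene. The distance is not scaled to a gene's own spread. That SD of log2 CPM was 1.4 for Lypd1, 1.53 for Ly6a, 0.706 for Ly6c1 and 0.523 for Lypd5.

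The rest of the family was counted from a list of 38 other genes, of which 33 were found in the files and 13 were tested. None of the 13 was called higher or lower (edgeR; at an unadjusted p under 0.05, 0 higher and 1 lower, and with DESeq2 1 lower). Over all genes tested, 7.98% were higher and 5.25% lower at that unadjusted p by edgeR, and DESeq2 called 1.43% lower. The log2 fold changes of the 13 were above 0 for 3 and below 0 for 10, with a median of -0.24. Of all 13704 genes tested 7275 were above 0 and 6429 below, with a median of 0.02. Of the 33, 9 had no count in any library, among them Ly6g, the neutrophil marker, which allows up to 0.132 to 0.177 CPM per library at 3 counts. Such limits and all counts here cover counting error only.

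Slurp2, a secreted relative of Slurp1 from the same cluster, was the 1 of these 13 with an unadjusted p under 0.05. It lay at 63.3, 85.8 and 51.1 CPM in the 3 wt libraries and at 44.7, 36.1 and 33.4 in the 3 ko libraries. Every ko library was below every wt library, with a log2 fold change of -0.81 (SE 0.22, adjusted p = 0.18 by edgeR and Benjamini-Hochberg over all genes). DESeq2 called it lower. Lynx1, the GPI-anchored gene next to it, overlapped between the groups (-0.05, SE 0.21, adjusted p = 0.957). Lypd6b lay within 46.7 to 50.5 CPM in all 6 libraries (-0.03, SE 0.09, adjusted p = 0.926).

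On chromosome 17, Ly6g6d lay at 39.8, 45.2 and 13.6 CPM in the 3 wt libraries and at 20.2, 14.8 and 14.2 in the 3 ko libraries. The undated wt library was as low as the ko libraries, and the log2 fold change of -1.0 (SE 0.43) had an adjusted p of 0.391 (edgeR, Benjamini-Hochberg). It was called lower among the dated libraries alone. Its neighbour Ly6g6e gave -0.33 (SE 0.24, adjusted p = 0.643). Pinlyp, an inhibitor-like gene beside Plaur, gave -0.35 (SE 0.44, adjusted p = 0.824). Plaur itself, named here after its values were seen, was scarce at 0.479 to 3.1 CPM over the 6 libraries (0.65, SE 0.57, adjusted p = 0.725).

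**Figure D4:**
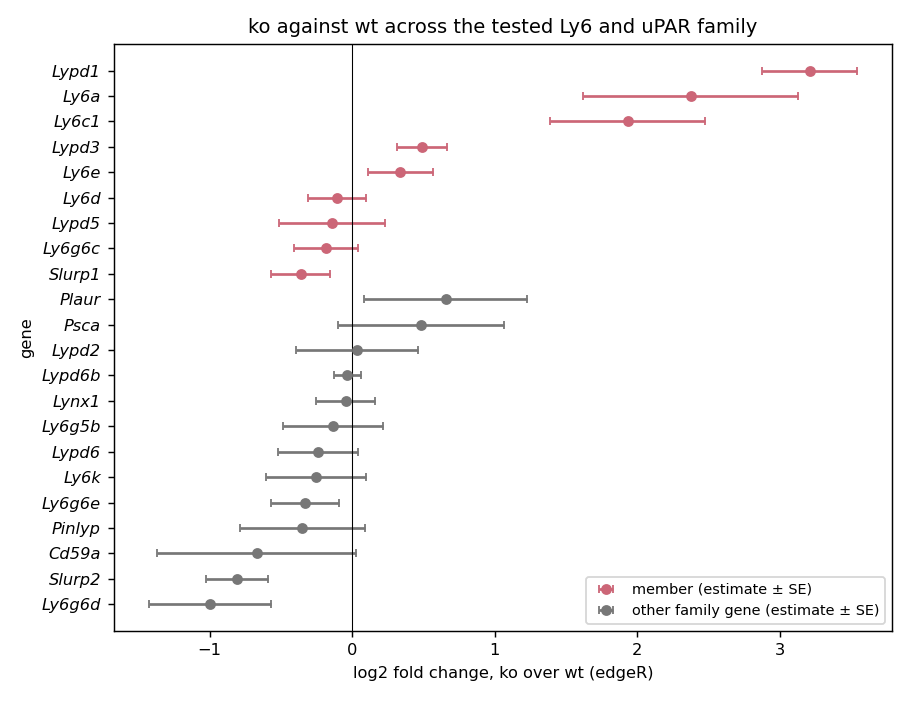
Log2 fold change of ko over wt with its SE for the 9 genes (red, chosen with these values known) and the 13 other tested family genes (grey), from the edgeR fit across all genes. Lypd1, Ly6a and Ly6c1 are the highest 3 points, and Slurp2 and Ly6g6d the lowest 2.

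Receptors and binding partners were read from a list of 35 genes, all found in the files, of which 19 were tested. None was called (edgeR; at an unadjusted p under 0.05, 2 higher and 2 lower, and with DESeq2 0). The nicotinic receptor subunits, the targets of Slurp1 and Lypd1, were scarce. Of 16 subunits 12 stayed under 1 CPM in every library and 5, among them Chrna7 and Chrna9, had no count in any. The 4 subunits tested had log2 fold changes from -1.33, that of Chrnb4, to 0.075, with 2 above and 2 below 0. Chrnb4, named after its values were seen, lay at 1.06, 1.81 and 1.5 CPM in the 3 wt libraries and at 0.895, 0.65 and 0.157 in the 3 ko libraries (-1.33, SE 0.51, adjusted p = 0.336). Ache, the acetylcholine-degrading enzyme, also named after its values were seen, was the most abundant gene of acetylcholine turnover on the list. It lay at 28.6, 36.4 and 25.2 CPM in the 3 wt libraries and at 26.8, 11.1 and 6.71 in the 3 ko libraries (-1.01, SE 0.47, adjusted p = 0.435).

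The partners known for Lypd3 gave no called difference either. Agr2 and Agr3, secreted ligands of Lypd3, stayed under 1 CPM in every library. The integrins Itga6, Itgb4 and Itgb1 were highest in the undated library of each group, as the basal markers were. Itga6 and Itgb4 are themselves on the basal list, so for them this is not a separate observation. Itga6 lay at 133.1, 18.3 and 217.1 CPM in the 3 wt libraries and 49.8, 61.6 and 296.5 in the 3 ko libraries (0.15, SE 0.96, adjusted p = 0.971). Itgb4 gave -0.05 (SE 0.99, adjusted p = 0.991), Itgb1 0.22 (SE 0.67, adjusted p = 0.935) and Itgav 0.39 (SE 0.17, adjusted p = 0.409). In the urokinase system the log2 fold change was above 0 for 6 of 7 genes, as it was for 7275 of all 13704 genes tested. Serpinb2, an inhibitor of urokinase and the most abundant of them, lay at 412.8, 286.3 and 533.5 CPM in the 3 wt libraries and at 389, 563.2 and 951.5 in the 3 ko libraries (0.63, SE 0.37, adjusted p = 0.553). Lrp1, a clearance receptor, gave 0.28 (SE 0.28, adjusted p = 0.767). The protease Plau, named after its values were seen, lay at 35.5, 22.7 and 45.3 CPM in the 3 wt libraries and at 57.7, 62.0 and 58.7 in the 3 ko libraries, with an adjusted p of 0.231 (edgeR, log2 fold change 0.78, SE 0.24). The inhibitor Serpine2, named likewise, lay at 1.1, 0.957 and 2.36 CPM in wt and 2.93, 3.55 and 3.41 in ko (1.15, SE 0.37, adjusted p = 0.258).

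The GPI anchor that most of these proteins carry is attached and remodelled by a fixed set of enzymes, of which 10 were listed and tested. None was called (edgeR; 0 at an unadjusted p under 0.05, 0 with DESeq2), and their median log2 fold change was -0.08. The transamidase subunits Pigt, Gpaa1 and Pigs gave -0.02, 0.13 and 0.03, with SE of 0.14, 0.11 and 0.11. The remodelling enzymes Pgap2 and Pgap1 gave -0.14 (SE 0.16) and -0.11 (SE 0.16). The farthest from 0 was Gpld1, the phospholipase that cleaves GPI anchors, at 210.6, 253.4 and 133.8 CPM in the 3 wt libraries and 159.5, 148.1 and 95.5 in the 3 ko libraries (-0.57, SE 0.29, adjusted p = 0.471 by edgeR). Its undated library was the lowest of its group in both genotypes, and the groups overlapped.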

How the data were processed

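Single-end reads of 51 bases from stranded poly(A) libraries were sequenced, per the labels' protocols. TopHat2 2.0.12, Bowtie 1.1, HTSeq and the build mm10 are named in the submitters' processing notes. The deposited files hold raw read counts per Ensembl gene, made by the authors. The annotation release is not given in the sources used here. Rows that name no gene were left out of library sizes: reads with more than 1 alignment made up 32.4 to 40.9% of all reads, and ambiguous reads 0.38 to 0.499%.

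Counts of 3 wt and 3 ko libraries were filtered with filterByExpr (minimum count 10), scaled by TMM and fitted with edgeR 4.0.16 (quasi-likelihood, Benjamini-Hochberg threshold 0.05). CPM are counts per 1000000 of the TMM-scaled library size. DESeq2 1.42.0, limma-voom 3.58.1, other scalings, filters and designs, and leaving out each library, were the alternatives. Symbols, exon lengths and sequence windows came from GENCODE M21 (GRCm38, which is mm10) and promoter windows from RefSeq (GRCm38.p6). Of 41214 gene identifiers 40254 had a symbol.

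The 9 genes and all lists were chosen with earlier results of these data known. The text names the 9 genes and Arpc4. From the family, receptor and GPI lists it takes every called gene and otherwise the 6 with the highest mean CPM, and from each marker list genes among the 3 highest. Other genes of these lists (those said to be named after their values were seen, those at or near 0, and close copies or neighbours) were named outside this rule. For each of the 9 genes with an SD of log2 CPM of at least 0.5 it takes the 3 nearest profiles. Replicates 1 and 2 were numbered from the titles (I and II), and the undated pair, whose titles give no such number, was called replicate 3. One result on a gene of the interferon list and one on a promoter motif are not reported here.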

Additional observations from a re-analysis of the deposited data

How the results depend on the processing

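The number of genes called between ko and wt depended on the analysis. It was 30 by edgeR, 57 with no filter on low counts, 18 with a filter of 1 CPM in 3 libraries, 650 with DESeq2 and 0 with limma-voom (1748 at an unadjusted p under 0.05). It was 709 with dated or undated title as a covariate and 227 in the dated libraries alone. Leaving out 1 library gave 0 to 64 calls (edgeR; 1229 to 2350 at an unadjusted p under 0.05, 238 to 805 with DESeq2). It was 0 without wt replicate 1, 2 or 3 or ko replicate 2, and 64 without ko replicate 3. The causes were not tested.

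With the replicate number as a block, 354 genes were called. Same-numbered libraries did not all deviate together (correlations of -0.17, 0.51 and 0.71), and ko replicate 1 correlated best with wt replicate 2 (0.55), so the numbers were not taken to pair the libraries. The libraries of the pair correlated at 0.71 also share an undated title.

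Of the other family genes, 1 was called with DESeq2 and 1 with the title covariate (Slurp2, lower, in both), and 1 in the dated libraries alone (Ly6g6d, lower). Of the GPI genes 1 was called, with the title covariate (Gpld1, lower). No receptor or partner gene was called under any alternative. Among the 9 genes the sign of the log2 fold change turned for Lypd5 and Ly6d without single libraries and for Ly6e in the dated libraries alone. With the longest transcript in place of merged exons, wt levels per kilobase moved to 0.107 for Lypd1, 1132 for Ly6g6c, 0.407 for Ly6c1 and 32.2 for Ly6e, and in ko Ly6c1 (1.58) came above Lypd1 (0.998). Counts of 4 to 39 limit Ly6c1, and 12 to 156 Lypd1.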
